A study of Homo sapiens with 8 samples.

Results

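The genes that build extracellular vesicles and release them from the cell were followed across 8 RNA-seq libraries of prostate cancer cells. The set was a fixed list of 54 genes, covering tetraspanins, the syntenin-syndecan-ALIX pathway, the ESCRT machinery, ceramide and flotillin genes, release GTPases and fusion factors. All 54 were found by symbol and Ensembl identifier among the 57905 genes of the deposited table.

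LNCaP is an established androgen-responsive prostate cancer line that is sensitive to enzalutamide, an antiandrogen drug. EnzaR is a resistant line, grown with 10 uM enzalutamide in its medium. EnzaR cells received 40 nM of a control siRNA (siNC, 2 libraries) or of an siRNA against YAP1 (siYAP1, 2 libraries) for 48 h. LNCaP cells, grown without the drug, received a vehicle (control) or vesicles purified from EnzaR cells, for the same 48 h. Those vesicles came from EnzaR cells given control siRNA (EV-siNC), YAP1 siRNA (EV-siYAP1) or siRNA against COUP-TFII, the product of NR2F2 (EV-siCII), with 1 library each. EnzaR thus stands for the cells that made the vesicles and LNCaP for the cells that took them. The EnzaR cells given COUP-TFII siRNA are not among the libraries, and RNA of the vesicles was not analysed here. Whether EnzaR is 1 clone, and whether replicates were separate cultures, is not stated in the labels, so p-values measure the spread between these libraries only. Line, drug in the medium and siRNA transfection differ together between EnzaR and LNCaP and cannot be told apart.

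Small vesicles called exosomes form when the membrane of an endosome buds inward, which turns the endosome into a multivesicular body. The ESCRT complexes act in sequence in that budding: ESCRT-0 gathers cargo, ESCRT-I and ESCRT-II shape the bud, and ESCRT-III filaments with the VPS4 ATPases cut its neck. Syntenin links syndecans to ALIX and so to ESCRT-III, and neutral sphingomyelinases offer a route through ceramide. RAB GTPases then bring the multivesicular body to the cell surface, where SNARE proteins fuse it with the plasma membrane. Tetraspanins such as CD9, CD63 and CD81 are abundant in vesicle membranes and are the usual proteins by which vesicles are identified. A transcript level in the cell is not a measure of vesicle number.

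Library totals lay between 16682669 and 18248939 counts, and 3 counts corresponded to 0.164 to 0.18 CPM, the usual library-scaled count. CPM values are scaled here with TMM factors over the 8 libraries. YAP1, the gene targeted in the vesicle-producing cells, was at 59.5 and 48.9 CPM in siNC and at 5.99 and 7.32 CPM in siYAP1. In LNCaP, YAP1 lay between 58.9 and 67.5 CPM, and NR2F2 lay between 42.9 and 53.8 CPM over all 8 libraries. The LNCaP lineage markers KLK3, KLK2, HOXB13 and KRT8 were at 10 CPM or more in every library of both lines. Of 9 markers of basal and other non-luminal prostate lines, 1 reached 10 CPM in all EnzaR libraries and 2 in all LNCaP libraries. VIM made most of that difference, with a median of 0.852 CPM in EnzaR and 279 CPM in LNCaP, while KRT5 and TP63 were at 0 counts in every library. The summed level of these 9 markers was 23.1 to 26.02 CPM in siNC, 14.9 to 18.24 CPM in siYAP1 and 290 to 309 CPM in LNCaP. The 6 fibroblast and blood cell markers summed to 19.6 to 23.4, 20.9 to 22.6 and 97.0 to 113 CPM in the same groups, most of it COL1A1, with a median of 20.6 CPM in EnzaR and 98.2 CPM in LNCaP. COL1A1 and PDGFRB were called lower in siNC than in LNCaP, by edgeR log2 fold changes of -2.29 and -1.74 that kept their call after GC and length correction. PTPRC was at 0 in every library and COL1A2 and HBB at no more than 9 and 4 counts in any. The part of these marker differences in the results below was not tested. In bulk RNA, fewer cells of a type and less RNA per cell cannot be told apart.

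Most of the vesicle machinery was expressed in the vesicle-producing cells. Of the 54 genes, 44 were at 10 CPM or more in all 4 EnzaR libraries and 45 reached 1 FPKM in all 8 libraries. FPKM, the count per exonic length and per library total, allows levels of different genes to be set side by side. The median over the 54 genes of the mean level was 14.5 FPKM in siNC and 18.4 FPKM in LNCaP. The tetraspanin CD9 led in siNC with a mean of 112 FPKM, followed by the ESCRT-III subunit CHMP2A with 103 FPKM and the membrane scaffold FLOT1 with 102 FPKM. The GTPases ARF6, with 87.7 FPKM, and RAB7A, with 86.8 FPKM, came next, and CD63, with 81.8 FPKM, was the sixth. In LNCaP the order at the top was CD63 with 156 FPKM, FLOT2 with 140 FPKM, CD151 with 137 FPKM, CHMP2A with 137 FPKM and CD9 with 119 FPKM.

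At the other end stood the release GTPases of the RAB27 pair, which dock multivesicular bodies at the plasma membrane. RAB27A had the lowest siNC level of the 54 genes, with a mean of 0.47 FPKM, and RAB27B was at 0.83 FPKM. Their effector SYTL4 was at 0.815 FPKM and the neutral sphingomyelinase SMPD3 at 0.9 FPKM. CHMP4A, TSPAN8 and STAM2 also lay below 1 FPKM in siNC, at 0.605, 0.645 and 0.93 FPKM. RAB11A, RAB35 and RAB7A, which serve other release routes, were at 29.8, 25.2 and 86.8 FPKM in siNC. RAB27A shares sequence positions with PIGB and PIGBOS1, CHMP4A with TM9SF1 and SMPD3 with PRMT7, and the strand setting of the counting is not given in the sources used here. Reads within such overlaps cannot be told apart here. The overlap is 236 positions for SMPD3, 154 for RAB27A with PIGB and 1930 with PIGBOS1, and 3891 for CHMP4A with TM9SF1. CHMP4A also shares 4224 positions on the same strand with ENSG00000260669.

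**Figure D1:**
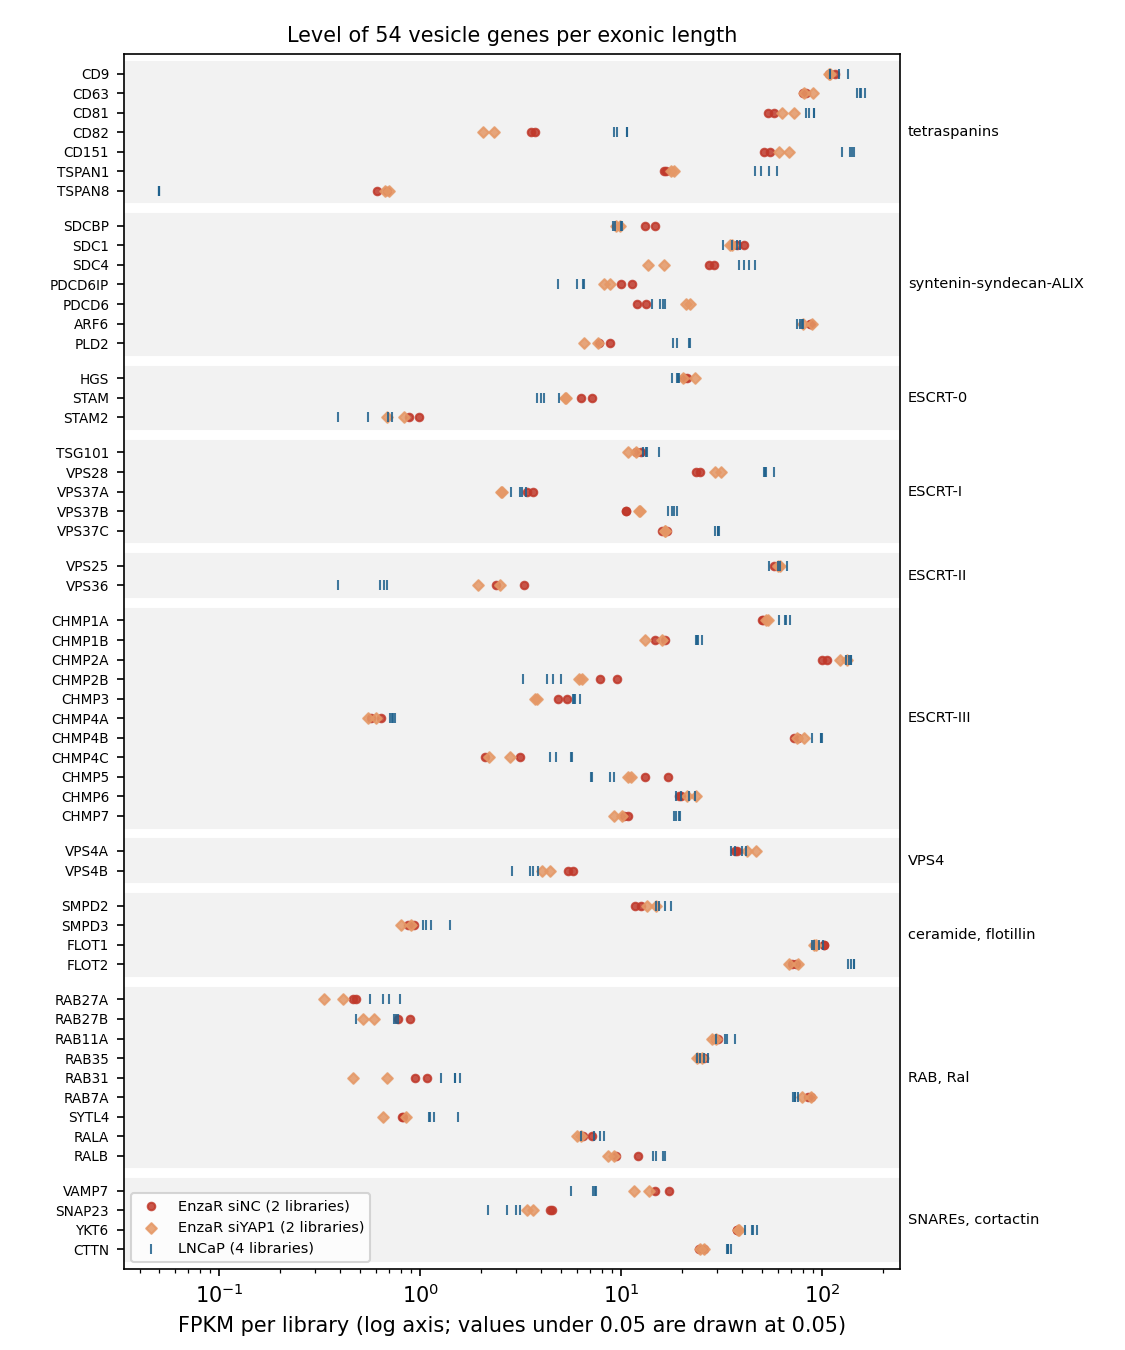
Level of each of the 54 vesicle genes in each library, in FPKM on a logarithmic axis, grouped by role; circles are EnzaR siNC, diamonds EnzaR siYAP1 and ticks the 4 LNCaP libraries. CD9, CHMP2A and FLOT1 sit near 100 FPKM in siNC, RAB27A, RAB27B, SYTL4 and SMPD3 sit below 1 FPKM, and TSPAN8 and VPS36 stand higher in EnzaR than in LNCaP.

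The comparison of siYAP1 with siNC asked how the vesicle genes behave when YAP1, a transcriptional coactivator of the Hippo pathway, is depleted in the cells that make the vesicles. Most of the 54 genes did not pass the test, and 18.5% of them were called, against 12.1% of all genes. With 2 libraries a group, not passing does not show that a gene was unchanged. By edgeR's quasi-likelihood test with Benjamini-Hochberg adjustment over all 14948 genes tested, 7 of the 54 genes rose, 3 fell and 44 did not pass an adjusted p of 0.05. The background was 12.1% of genes called, 5.83% higher and 6.22% lower. SDC4, CD82 and SDCBP fell, and PDCD6, VPS28, CHMP2A, CD81, CD151, VPS4A and VPS37B rose. Among these 10 the largest rise was 1.82-fold, for PDCD6, and the largest fall 1.76-fold, for SDC4. None of the 54 changed 2-fold. The median log2 fold change was 0.02 over the 54 genes and -0.03 over all genes tested, and the median size was 0.19 and 0.24. The siNC and siYAP1 values did not overlap for 39 of the 54 genes, against 58.5% of all genes tested.

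The syntenin-syndecan-ALIX pathway held the widest changes, 1 higher and 2 lower of 7 genes. SDC4 (chr20:43953928-43977064 in hg19, as are all gene positions here) encodes syndecan-4, a heparan sulfate proteoglycan of the cell surface whose tail binds syntenin. Its level was 75.1 and 72.0 CPM in siNC and 39.1 and 44.8 CPM in siYAP1, with means of 73.5 ± 2.23 and 42.0 ± 4.06 CPM (SD, n = 2 each). Both siYAP1 libraries lay far below both siNC libraries, and the edgeR log2 fold change was -0.81 (SE 0.111, adjusted p = 0.00039). SDCBP (chr8:59465483-59495419), the gene of syntenin itself, was at 69.1 and 63.4 CPM in siNC and at 49.7 and 49.3 CPM in siYAP1. The groups did not overlap, with a log2 fold change of -0.42 (SE 0.107, edgeR adjusted p = 0.0174).

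PDCD6 (chr5:271736-353971) encodes ALG-2, a calcium-binding partner of ALIX. It was at 112 and 128 CPM in siNC and at 218 and 220 CPM in siYAP1. The siYAP1 libraries were nearly alike and both well above siNC, with means of 120.0 ± 10.8 and 219 ± 1.46 CPM (SD, n = 2 each). The log2 fold change was 0.86 (SE 0.098, edgeR adjusted p = 4.44e-05). PDCD6 overlaps AHRR on the same strand, whose mean count of 50.2 stands against 2748 for PDCD6. ALIX itself, the product of PDCD6IP, was at 88.4 and 103 CPM in siNC and 81.5 and 83.6 CPM in siYAP1, and did not pass the test (log2 fold change -0.22, edgeR adjusted p = 0.172). SDC1, ARF6 and PLD2, a second syndecan and the GTPase and phospholipase D that act with syntenin, did not pass either.

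Among the 7 tetraspanins 2 rose and 1 fell. CD82 (chr11:44585977-44641913), known as the metastasis suppressor KAI1, was at 14.9 and 14.5 CPM in siNC and at 9.15 and 9.93 CPM in siYAP1. The siYAP1 values lay clearly below, with a log2 fold change of -0.63 (SE 0.167, edgeR adjusted p = 0.0224). CD81 (chr11:2397407-2418649), a vesicle marker protein, was at 393 and 431 CPM in siNC and at 588 and 493 CPM in siYAP1, a log2 fold change of 0.39 (SE 0.104, edgeR adjusted p = 0.0236). CD151 (chr11:832843-839831), a partner of laminin-binding integrins, was at 200.2 and 219 CPM in siNC and at 295 and 254 CPM in siYAP1. Its log2 fold change was 0.38 (SE 0.101, edgeR adjusted p = 0.0211), and it overlaps POLR2L on the opposite strand. For both CD81 and CD151 the first siYAP1 library was the highest of the 4 and the groups did not overlap.

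The other tetraspanins commonly used to identify vesicles did not pass the test. CD9 was at 367 and 351 CPM in siNC and at 386 and 364 CPM in siYAP1, so that the groups overlapped (log2 fold change 0.06, edgeR adjusted p = 0.701). CD63 was at 209 and 220 CPM in siNC and at 259 and 224 CPM in siYAP1, a log2 fold change of 0.17 (edgeR adjusted p = 0.273), and it overlaps CD63-AS1 on the opposite strand. The epithelial tetraspanins TSPAN1 and TSPAN8 were likewise not called.

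In the ESCRT machinery, 2 of 5 ESCRT-I genes, 1 of 11 ESCRT-III genes and 1 of the 2 VPS4 genes rose and none fell. VPS28 (chr8:145649000-145653931), a core subunit of ESCRT-I, was at 87.1 and 93.1 CPM in siNC and at 129 and 115 CPM in siYAP1, with a log2 fold change of 0.44 (SE 0.101, edgeR adjusted p = 0.0125). CHMP2A (chr19:59062933-59066491), the ESCRT-III subunit that recruits VPS4, was at 211 and 227 CPM in siNC and at 310.0 and 274 CPM in siYAP1, with a log2 fold change of 0.41 (SE 0.098, edgeR adjusted p = 0.014). VPS4A (chr16:69345259-69358949), the ATPase that takes ESCRT-III filaments apart, was at 138 and 144 CPM in siNC and at 195 and 169 CPM in siYAP1. Its log2 fold change was 0.36 (SE 0.099, edgeR adjusted p = 0.0247), and it overlaps COG8 on the opposite strand. VPS37B (chr12:123349882-123380991), another ESCRT-I subunit, was at 62.2 and 63.4 CPM in siNC and at 81.1 and 76.8 CPM in siYAP1, a log2 fold change of 0.33 (SE 0.103, edgeR adjusted p = 0.043). For these 4 genes the groups did not overlap, and the first siYAP1 library was above the second. That order held for 6 of the 7 genes that rose, PDCD6 being the exception.

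TSG101, the ESCRT-I subunit that binds cargo, was at 47.3 and 45.8 CPM in siNC and at 49.9 and 43.4 CPM in siYAP1. The groups overlapped, and the log2 fold change was -0.00 (edgeR adjusted p = 0.999). None of the 3 ESCRT-0 genes, HGS, STAM and STAM2, and neither ESCRT-II gene, VPS25 or VPS36, passed the test. VPS4B, the second VPS4 gene, lay on the lower side without passing, as the plot of log2 fold changes by role shows.

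Of the 54, no release GTPase, SNARE, ceramide or flotillin gene passed the test. RAB27A was at 2.68 and 2.59 CPM in siNC and at 2.04 and 2.44 CPM in siYAP1 (log2 fold change -0.23, edgeR adjusted p = 0.648). RAB27B was at 6.56 and 5.79 CPM in siNC and at 4.80 and 4.07 CPM in siYAP1 (log2 fold change -0.48, edgeR adjusted p = 0.156). Both genes were lower in each siYAP1 library than in each siNC library. SMPD3 was at 6.12 and 6.73 CPM in siNC and at 7.04 and 6.04 CPM in siYAP1, with overlapping groups (log2 fold change 0.02, edgeR adjusted p = 0.966). RAB31, an alternative driver of exosome formation, had a log2 fold change of -0.72 (edgeR adjusted p = 0.0639). It is named after its values were seen, because it passed the threshold in 2 of 14 alternative analyses. RAB31 was not the only such gene. CHMP3 (log2 fold change -0.34, edgeR adjusted p = 0.0682) passed in 3 of 15, and VPS37A and CHMP2B passed with library totals as the only scaling. CHMP2B and CHMP5, with log2 fold changes of -0.38 and -0.36 in the main fit, also passed when siNC replicate 1 was left out.

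Base composition and single libraries moved with these calls. Median transcript GC content was 59.4% for the 7 genes that rose, 48.8% for the 3 that fell and 45.5% for the other 44. Over all genes tested it was 59.6% for those that rose and 41.4% for those that fell. With a GC and length correction 2 genes rose and 2 fell: PDCD6, SDC4 and CD82 kept their call, with log2 fold changes of 0.92, -0.82 and -0.76, and RAB11A, a recycling endosome GTPase, was added with 0.37 (edgeR adjusted p = 0.0147; 0.0147 to 0.876 over its alternatives). The other 7 kept their direction, with corrected log2 fold changes between -0.17 for SDCBP and 0.31 for VPS4A. Without siYAP1 replicate 1 only PDCD6 was called, 1 higher and 0 lower. Without siNC replicate 1, PDCD6 and SDC4 alone of the 10 genes kept their call. CHMP2B and CHMP5 were newly called lower in that fit, while CD82 and SDCBP lost their call. Without siNC replicate 2, VPS37B and VPS4A lost their call, and without siYAP1 replicate 2, CD82, SDCBP and VPS37B did. Over all genes, leaving out siYAP1 replicate 1 cut the calls from 1802 to 26. PDCD6 was called in 15 of 15 alternatives and SDC4 in 14 of 15, the exception for SDC4 being the fit without siYAP1 replicate 1 (adjusted p = 0.0564; 1.59e-09 to 0.0564 over its alternatives).

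**Figure D2:**
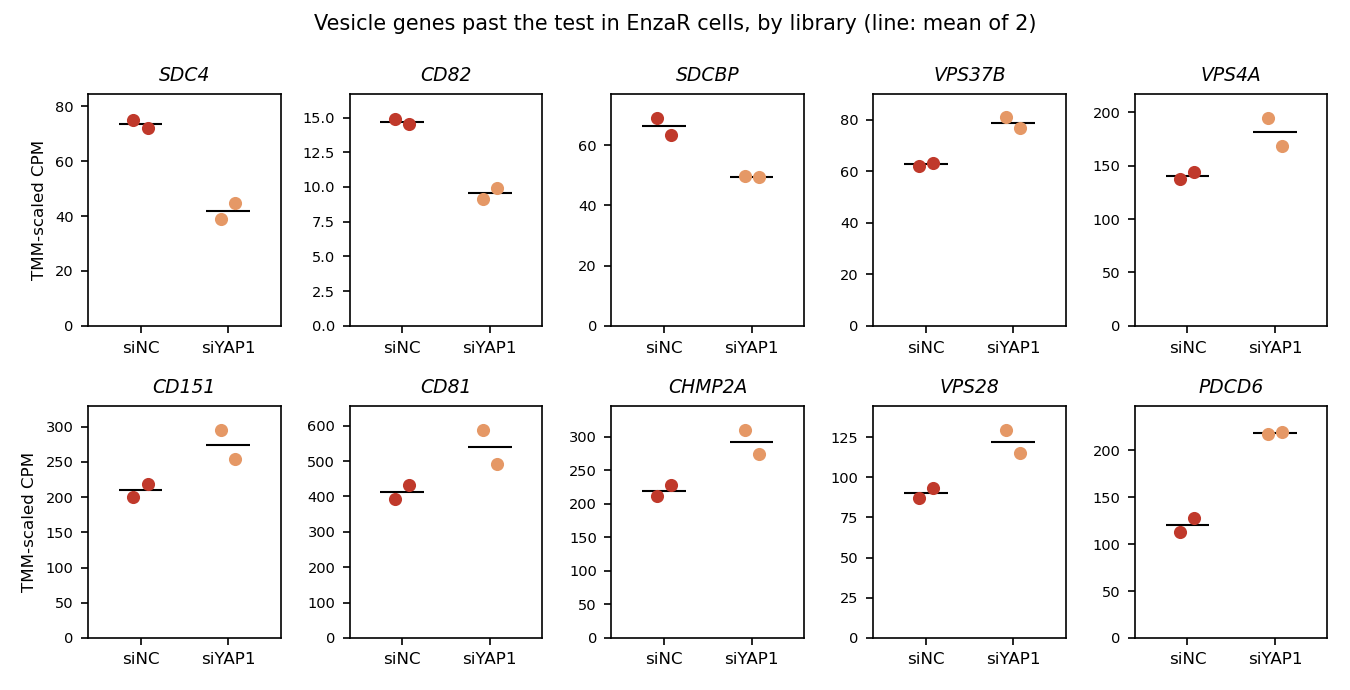
TMM-scaled CPM of the 10 vesicle genes that passed the test in EnzaR cells, 1 point per library and a line at the mean of 2, each panel with its own axis from 0. SDC4, CD82 and SDCBP are lower and the other 7 higher in both siYAP1 libraries, and PDCD6 goes from 112 and 128 CPM to 218 and 220 CPM.

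**Figure D3:**
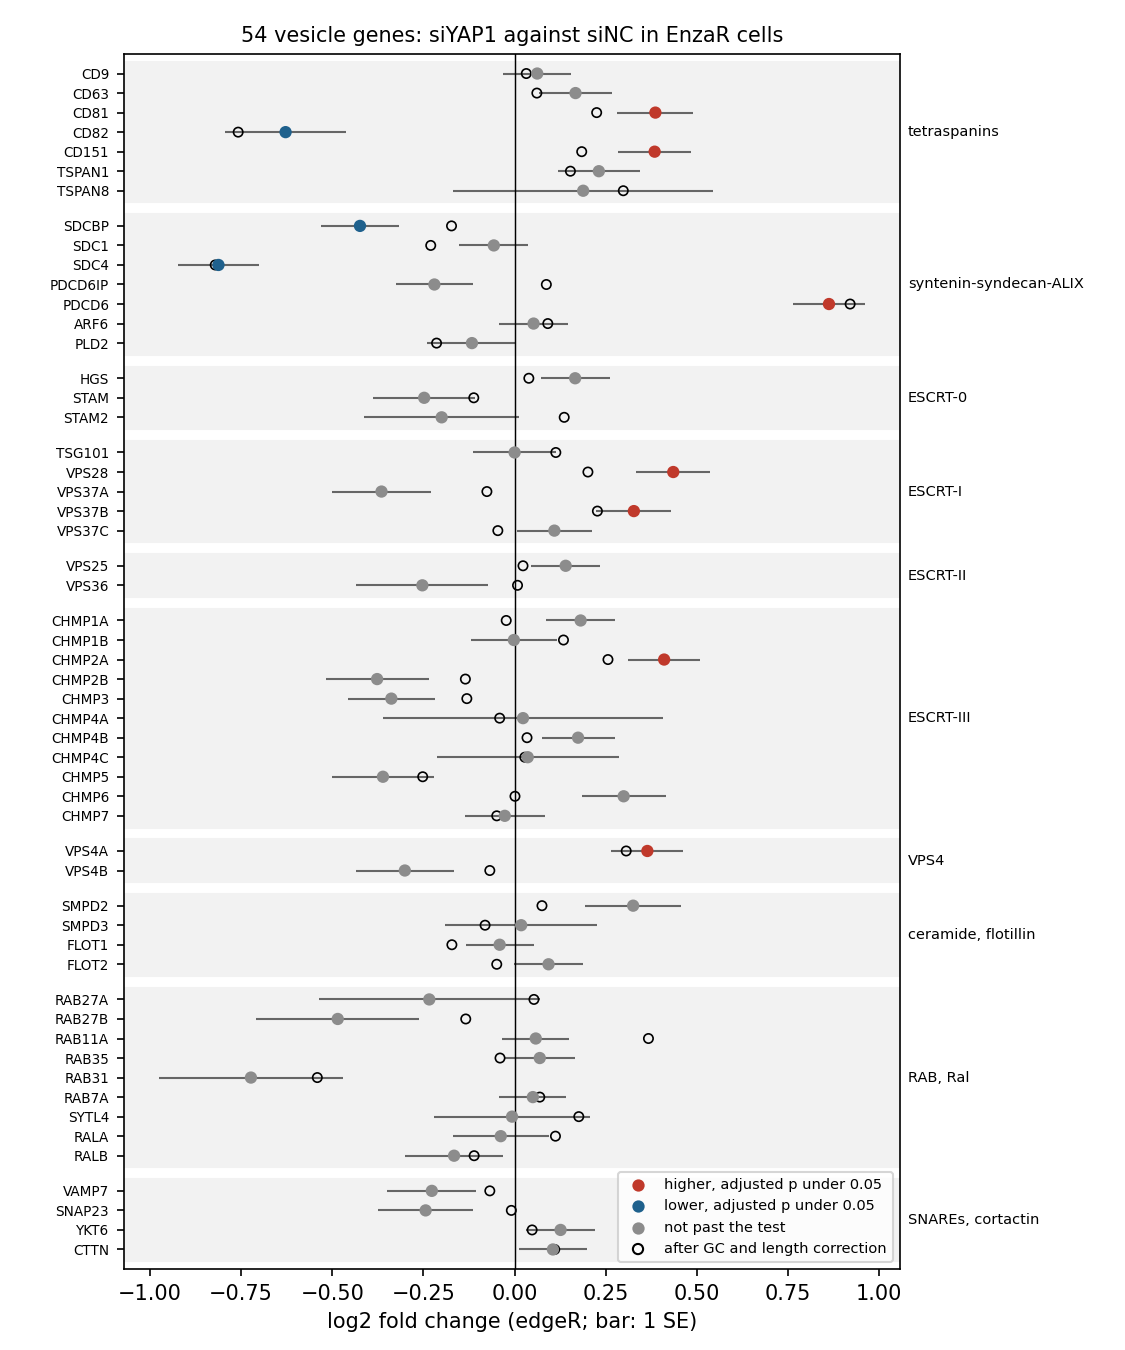
edgeR log2 fold change of siYAP1 against siNC for the 54 vesicle genes by role, with bars of 1 SE; red passed as higher, blue as lower, grey did not pass, and open circles give the value after GC and length correction. SDC4, CD82 and PDCD6 hold their place after the correction, while the other 7 called genes move toward 0.

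YAP1 has no DNA-binding domain of its own and reaches genes through TEAD factors, whose core motif is GGAATG. RefSeq promoter windows (GRCh38.p14), cut to the 250 bases before the start site, were matched by symbol for 42 of the 54 genes. The motif, searched as GGAATG or CATTCC on both strands, was present in 5 of their 61 windows (8.2%), against 11.9% of all 34961 windows of that length. The 5 genes were VPS37B, CD63, TSPAN8, RAB27A and SYTL4. Of the 10 called genes 6 had a window, and 1 of these, VPS37B, held the motif. A match is a description of these letters and not a binding site. The windows printed are those of the 3 genes whose call was kept after the GC correction and of VPS37B, 5′ to 3′ on the gene's strand and in lower case, with capitals for the motif, whose first base in VPS37B is at -121. They lie at chr20:45348425-45348674 (minus strand, SDC4), chr11:44565413-44565662 (plus, CD82), chr5:271396-271645 (plus, PDCD6) and chr12:122896125-122896374 (minus, VPS37B).
SDC4: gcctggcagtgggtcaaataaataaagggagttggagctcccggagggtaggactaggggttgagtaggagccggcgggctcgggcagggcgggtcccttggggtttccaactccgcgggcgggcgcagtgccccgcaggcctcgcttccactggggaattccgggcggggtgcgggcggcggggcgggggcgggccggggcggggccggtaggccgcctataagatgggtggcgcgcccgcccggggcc
CD82: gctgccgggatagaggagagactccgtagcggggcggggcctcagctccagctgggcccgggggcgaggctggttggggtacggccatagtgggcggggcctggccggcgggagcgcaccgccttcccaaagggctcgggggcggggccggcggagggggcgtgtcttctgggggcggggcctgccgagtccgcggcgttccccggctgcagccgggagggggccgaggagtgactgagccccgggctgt
PDCD6: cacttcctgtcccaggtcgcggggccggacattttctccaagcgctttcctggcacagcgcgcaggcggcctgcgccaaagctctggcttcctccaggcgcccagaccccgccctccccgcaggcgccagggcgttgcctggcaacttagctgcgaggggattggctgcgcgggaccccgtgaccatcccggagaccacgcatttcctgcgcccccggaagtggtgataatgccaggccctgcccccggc
VPS37B: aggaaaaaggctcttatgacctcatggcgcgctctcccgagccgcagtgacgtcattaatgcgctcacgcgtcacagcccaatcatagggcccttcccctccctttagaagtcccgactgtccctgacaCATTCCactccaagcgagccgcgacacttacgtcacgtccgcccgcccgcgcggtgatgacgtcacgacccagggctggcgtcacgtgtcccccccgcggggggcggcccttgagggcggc
The windows of SDC4, CD82 and PDCD6 hold no GGAATG or CATTCC within these 250 bases. That says only that these letters are not in this stretch.

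Genes of the wider pathway outside the 54 were read from 8 lists. Of 112 genes on them 105 were tested, 10 rose and 13 fell, against the same background of 12.1%. After GC and length correction 6 of these 23 kept their call. Plasma membrane shedding, the other way a cell makes vesicles, had 0 higher and 4 lower of 9 tested genes, with a median log2 fold change of -0.48. ROCK2, a kinase of actomyosin contraction, had -0.999, and ANO6, a phospholipid scramblase, had -0.94. CAPN2, a calpain protease, and DIAPH3, a formin, had -0.54 and -0.50 and are named to complete the 4. ANO6 and CAPN2 kept their call after the correction, with log2 fold changes of -0.69 and -0.32. Of the exocyst, which tethers vesicles at the plasma membrane, EXOC1 (-0.65) and EXOC5 (-0.43) fell among 9 genes, and neither kept its call.

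Among 11 further ESCRT subunits and partners 2 rose and 2 fell. MVB12B and MVB12A, accessory subunits of ESCRT-I, had log2 fold changes of 0.65 and 0.38, while USP8, a deubiquitinase of ESCRT-0 cargo, had -0.87 and VTA1, a VPS4 cofactor, had -0.46. MVB12B went from 23.2 and 20.6 CPM to 35.6 and 33.2 CPM and USP8 from 16.02 and 18.2 CPM to 8.55 and 10.2 CPM, and these 2 kept their call after the correction. Of 20 tested RAB proteins and RAB27 effectors, SYTL1 (0.40) and RAB11B (0.31) rose and EXPH5 (-0.76) fell. Of 17 SNAREs, VAMP2 (0.41) and VAMP8 (0.40) rose and STX7 (-0.63) fell. None of these 6 kept its call after the correction.

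Of 16 lysosomal genes, whose products meet the multivesicular bodies that are degraded rather than released, 4 rose and 2 fell. The largest were ATP6V0A1 (0.40) and MCOLN1 (0.40), a proton pump subunit and a calcium channel, and NPC1 (-0.46) and ATP6V1A (-0.40), a cholesterol transporter and another pump subunit. ATP6V0A1 kept its call after the correction. Of 13 further tetraspanins TSPAN15 fell (-0.38) and kept its call. None of 10 heparan sulfate and further syndecan genes passed the test.

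The comparison of EnzaR siNC with the LNCaP libraries asked how the vesicle genes of the producing line differ from those of the recipient line. Tetraspanins were mostly lower in EnzaR, and TSPAN8 and VPS36 showed the widest gaps. ESCRT-0 genes were called higher, but STAM and STAM2 lost their call after GC and length correction, and HGS lost its call in most alternatives. Of the 54 genes 14 were higher and 24 lower in EnzaR by edgeR's adjusted p alone, where 69.8% of all 16671 genes tested were called, 34.6% higher and 35.2% lower. With a 2-fold minimum added, 4 were higher (TSPAN8, VPS36, VAMP7 and CHMP2B) and 5 lower (TSPAN1, CD82, CD151, PLD2 and VPS28), against a background of 36.4%, 16.8% higher and 19.5% lower. The median log2 fold change was -0.18 over the 54 genes and -0.04 over all genes, and the median size was 0.48 and 0.74. The siNC and LNCaP values did not overlap for 47 of the 54 genes, against 75.6% of all genes.

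The tetraspanins were mostly lower in EnzaR, 5 lower and 1 higher of 7. TSPAN1, an epithelial tetraspanin, was at 38.2 and 39.6 CPM in siNC and at 140, 112, 104 and 124 CPM in LNCaP (control, EV-siNC, EV-siYAP1 and EV-siCII, the order used throughout). Every LNCaP library was far above EnzaR, with a log2 fold change of -1.63 (SE 0.11, edgeR adjusted p = 9.93e-12). TSPAN1 overlaps PIK3R3 on the opposite strand, which has the higher mean count, 2533 against 1458. CD82 was at 14.9 and 14.5 CPM in siNC and at 37.3, 37.1, 41.1 and 41.5 CPM in LNCaP, a log2 fold change of -1.42 (SE 0.124, edgeR adjusted p = 9.22e-10). CD151 was at 200.2 and 219 CPM in siNC and at 566, 520.1, 468 and 531 CPM in LNCaP, a log2 fold change of -1.31 (SE 0.095, edgeR adjusted p = 2.93e-11).

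CD63 was at 209 and 220 CPM in siNC and at 427, 377, 389 and 391.8 CPM in LNCaP, a log2 fold change of -0.89 (SE 0.086, edgeR adjusted p = 5.28e-09). CD81 was at 393 and 431 CPM in siNC and at 669, 589, 604 and 650 CPM in LNCaP, a log2 fold change of -0.61 (edgeR adjusted p = 2.76e-06), but after GC and length correction its value turned to 0.28. CD9, with 432, 337, 335 and 374 CPM in LNCaP, overlapped the EnzaR range and did not pass (log2 fold change -0.04, edgeR adjusted p = 0.688). After the correction CD9 was called lower, at -0.22 (edgeR adjusted p = 0.0294; 0.0294 to 0.969 over its alternatives). TSPAN8 was the one of the 7 that was higher in EnzaR: it had 31 and 28 counts in siNC, 28 and 32 in siYAP1, and 2, 0, 2 and 2 in LNCaP. The ratio of its summed, scaled counts, 59 in siNC against 6 in LNCaP, was 19.8 with an exact 95% interval of 8.55 to 56.0 for counting error.

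All 3 ESCRT-0 genes were higher in EnzaR, STAM by 0.73, STAM2 by 0.71 and HGS by 0.20 on the log2 scale. The call of HGS (edgeR adjusted p = 0.0326) was made in 4 of 14 alternatives and lost in the other 10, which include library totals and both fits without 1 siNC library. After the GC and length correction HGS was at 1.049, and STAM and STAM2 were at 0.02 and 0.13 and no longer called. Of 5 ESCRT-I genes 3 were lower. VPS28, at 87.1 and 93.1 CPM in siNC and 193, 190, 204 and 184 CPM in LNCaP, had a log2 fold change of -1.09 (SE 0.087, edgeR adjusted p = 1.56e-10). VPS37C had -0.83 and VPS37B -0.73, and both lay wholly below LNCaP. TSG101 was at 50.6, 47.5, 48.9 and 57.2 CPM in LNCaP and did not pass (log2 fold change -0.13, edgeR adjusted p = 0.246). After the correction TSG101 was called lower, at -0.64 (edgeR adjusted p = 4.7e-06; 4.7e-06 to 0.527 over its alternatives).

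VPS36, the ESCRT-II subunit that binds ubiquitin, had the largest difference among the ESCRT genes of the 54. It was at 13.1 and 18.5 CPM in siNC, 11.9 and 14.6 CPM in siYAP1, and 3.50, 3.69, 2.06 and 3.56 CPM in LNCaP. All 4 EnzaR libraries were above all 4 LNCaP libraries, with a log2 fold change of 2.30 (SE 0.202, edgeR adjusted p = 8.68e-10) and 1.73 after the correction. VPS25, the other ESCRT-II gene, had a log2 fold change of 0.01 and did not pass.

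Of 11 ESCRT-III genes 2 were higher and 6 lower. CHMP2B was at 24.2 and 29.8 CPM in siNC and at 10.0, 12.7, 13.5 and 14.99 CPM in LNCaP, a log2 fold change of 1.07 (SE 0.148, edgeR adjusted p = 1.08e-06). CHMP5 had 0.96 (SE 0.136, edgeR adjusted p = 1.49e-06), and both were near 0 after the correction, at 0.00 and 0.08. CHMP4C, which acts in the abscission checkpoint, had -0.92, and CHMP7, which acts at the nuclear envelope, had -0.80; both kept their call, at -1.55 and -0.69. CHMP4C overlaps ZFAND1 on the opposite strand, which has the higher mean count, 296 against 126.5. VPS4B had 0.73 before and 0.00 after the correction, and VPS4A did not pass (0.00).

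In the syntenin-syndecan-ALIX pathway 3 genes were higher and 3 lower of 7. ALIX (PDCD6IP; chr3:33839844-33911194) was at 88.4 and 103 CPM in siNC and at 43.5, 52.2, 55.4 and 56.4 CPM in LNCaP. The siNC libraries were the higher without overlap, with a log2 fold change of 0.88 (SE 0.1, edgeR adjusted p = 5.48e-08) and 0.59 after the correction. SDCBP was at 44.5, 41.8, 45.3 and 46.2 CPM in LNCaP, below both siNC libraries, with a log2 fold change of 0.57 (SE 0.09, edgeR adjusted p = 6.5e-06) that turned to -0.11 after the correction. PLD2 (phospholipase D2) was at 37.3 and 43.1 CPM in siNC and at 87.7, 89.3, 102 and 102 CPM in LNCaP, a log2 fold change of -1.24 (SE 0.103, edgeR adjusted p = 3.59e-10). SDC4, which fell with siYAP1, was also lower in siNC than in LNCaP, where it was at 121, 96.4, 101 and 108 CPM (log2 fold change -0.54, edgeR adjusted p = 4.56e-05). The fits of siYAP1 against siNC and of siNC against LNCaP share the siNC libraries.

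VAMP7, a SNARE that fuses late endosomes and lysosomes with the plasma membrane, was at 45.4 and 39.3 CPM in siNC and at 15, 18.6, 19.0 and 18.9 CPM in LNCaP. Its log2 fold change was 1.24 (SE 0.12, edgeR adjusted p = 4.53e-09), and 0.32 after the correction. VAMP7 lies in a region shared by the X and Y chromosomes, and how reads of that region were counted is not given in the sources used here. SNAP23, its partner at the plasma membrane, had 0.75 (edgeR adjusted p = 3.86e-05), and 0.31 after the correction, and it overlaps LRRC57 on the opposite strand. Among the 9 genes made up of the release GTPases and the effector SYTL4, 1 was higher and 3 lower, none 2-fold. RAB7A had 0.28 (edgeR adjusted p = 0.00212), which turned to -0.16 after the correction.

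RAB27A, at 3.10, 3.48, 4.22 and 3.78 CPM in LNCaP, had a log2 fold change of -0.47 and did not pass (edgeR adjusted p = 0.0803). After the GC and length correction it was called lower, at -1.11 (edgeR adjusted p = 0.000115; 0.000115 to 0.596 over its alternatives). RAB27B, at 3.55, 5.46, 5.25 and 5.47 CPM in LNCaP, had 0.32 (edgeR adjusted p = 0.165), and -0.27 after the correction. SMPD3, at 7.61, 7.06, 9.53 and 7.77 CPM in LNCaP, had -0.31 (edgeR adjusted p = 0.127), and 0.36 after the correction. FLOT2, a membrane scaffold protein, was at 233 and 248 CPM in siNC and at 478, 431, 441 and 462 CPM in LNCaP. Its log2 fold change was -0.91 (SE 0.082, edgeR adjusted p = 1.23e-09). Its partner FLOT1 did not pass (log2 fold change 0.16, edgeR adjusted p = 0.0737). After the correction FLOT1 was called higher, at 0.31 (edgeR adjusted p = 0.000441), the only 1 of its 14 alternatives with that call.

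Base composition moved with these calls as well. Median GC content was 39.9% for the 14 genes higher in EnzaR and 55.1% for the 24 lower ones, against 45.2% and 54.5% over all genes called. After the GC and length correction 11 genes were higher and 26 lower. Of the 14 higher genes 6 kept their call (TSPAN8, PDCD6IP, HGS, VPS36, VAMP7 and SNAP23) and 3 turned (SDCBP, ARF6 and RAB7A). Of the 24 lower genes 18 kept their call and 3 turned (CD81, PDCD6 and CHMP1A). Set against the LNCaP control library alone, without vesicles, 8 genes were higher with a 2-fold minimum in place of 4.

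**Figure D4:**
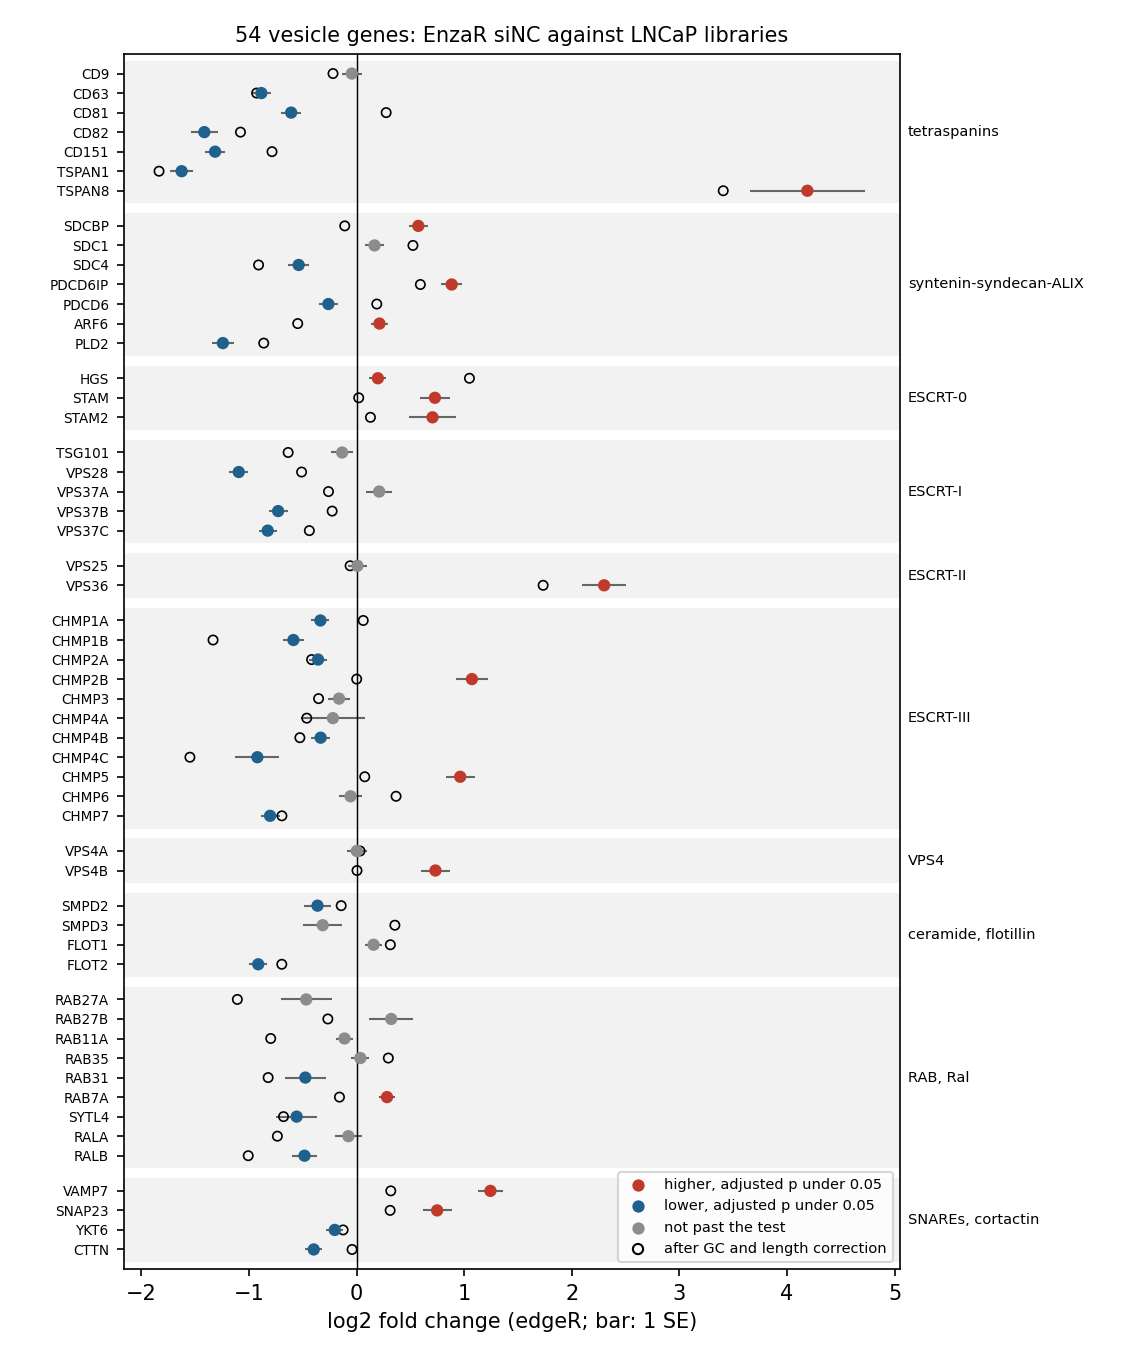
edgeR log2 fold change of EnzaR siNC against the 4 LNCaP libraries for the 54 vesicle genes by role, with bars of 1 SE; red passed as higher in EnzaR, blue as lower, grey did not pass, and open circles give the value after GC and length correction. TSPAN8 and VPS36 stand to the right, TSPAN1, CD82 and CD151 to the left, and CHMP2B, CHMP5 and VPS4B move to near 0 after the correction.

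On the 8 wider lists 106 genes were tested, 36 were higher and 42 lower in EnzaR, and 55 of these kept their call after the correction, where 69.8% of all genes were called, 34.6% higher and 35.2% lower. Of 13 further tetraspanins 1 was higher, TSPAN7 (3.43), and 9 were lower, with TSPAN31 (-1.90) and CD37 (-1.57) the lowest. Among further ESCRT genes 4 were higher and 5 lower, from VPS37D (-3.12), which is an ESCRT-I subunit, and PTPN23 (-0.64) to USP8 (0.65) and BROX (0.64). Lysosomal genes were higher for 8 and lower for 4 of 16, led by their transcription factor TFEB (2.20) and ATP6V1A (1.09), with the proteases CTSB (-1.19) and CTSD (-1.11) on the other side. TFEB was at 52.7 and 57.3 CPM in siNC and at 12.4, 11.4, 11.8 and 12.2 CPM in LNCaP.

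RAB genes and effectors were higher for 7 and lower for 8 of 20, with RAB4A (1.09) and RAB8A (0.98) against UNC13D (-1.74) and RAB5B (-1.66). SNAREs were higher for 7 and lower for 5 of 17, with STX8 (1.05) and VAMP3 (0.96) against VAMP5 (-1.12) and STX16 (-0.67). The exocyst was higher for 4 and lower for 2 of 9, with EXOC5 (0.90) and EXOC8 (0.82) against EXOC7 (-1.18) and EXOC3 (-0.42). Heparan sulfate genes were higher for 3 and lower for 5 of 10, with SDC2 (1.80) and HS2ST1 (0.89) against SDC3 (-1.37) and EXT1 (-1.02). Shedding genes were higher for 2 and lower for 4 of 10, with DIAPH3 (4.21) and CAPN2 (1.54) against PLSCR3 (-1.48) and CAPN1 (-1.40).

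The recipient LNCaP cells were compared in 3 ways, each between single libraries. No LNCaP group has a replicate of its own, so no test was made, and the intervals given are exact 95% binomial intervals that cover counting error only. Genes had to reach 10 CPM in either library, and a prior count of 2 was added. No vesicle gene above that floor differed 1.5-fold in any of the 3 comparisons. For EV-siNC against control 0 of 44 genes passed 1.5-fold, where 3.06% of all genes did. For EV-siYAP1 against EV-siNC it was 0 of 45, with 0.722% of all genes, and for EV-siCII against EV-siNC it was 0 of 46, with 0.485%. All 3 comparisons use the EV-siNC library. As a yardstick, the log2 ratios between the siNC replicates ran from -0.31 to 0.50 over the vesicle genes above the floor, and those between the siYAP1 replicates from -0.24 to 0.30. The median sizes of the log2 ratios were 0.078 and 0.095 there, and 0.138, 0.092 and 0.103 in the 3 LNCaP comparisons.

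With control vesicles added, 32 of the 44 genes were lower and 12 higher than in the control library, with a median log2 ratio of -0.10 against -0.03 over all genes, of which 56.2% were lower and 43.8% higher. CD9 had the lowest ratio, -0.37 (interval -0.41 to -0.32), from 432 to 337 CPM. SDC4, from 121 to 96.4 CPM, had -0.34, and TSPAN1, from 140 to 112 CPM, had -0.32. These 3 ratios lie below both ranges between EnzaR replicates, TSPAN1 only just. The intervals of SDC4 (-0.43 to -0.25) and TSPAN1 (-0.41 to -0.24) reach into the siNC range. Those ranges come from the other line and do not measure the spread between LNCaP libraries. All 6 tetraspanins above the floor had ratios below 0, but for CD82 (-0.01) the interval of -0.17 to 0.14 included 0. After GC and length correction CD81, CD82 and CD151 were above 0, at 0.02, 0.08 and 0.03. The highest were SNAP23 with 0.41 (interval 0.16 to 0.66), VPS4B with 0.37 and CHMP2B with 0.33. Of the 26 genes with a GC content of 51.3% or more 25 were lower, and of the 18 below it 7 were. After GC and length correction SNAP23, VPS4B and CHMP2B were at 0.17, 0.13 and 0.12, and SDCBP went from -0.10 to -0.35. Then 31 of the 44 genes were lower, but in part other genes than before. The median log2 ratio went from -0.135 to -0.055 in the 26 genes and from 0.074 to -0.140 in the 18. The corrected share over all genes is not given here.

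Between vesicles from YAP1-depleted and from control EnzaR cells, 32 of 45 genes were higher and 13 lower, with a median log2 ratio of 0.05 against 0.01 over all genes, of which 51.4% were higher and 48.6% lower. The highest ratios were 0.29 for STAM (interval 0.04 to 0.55), 0.29 for SDC1 (interval 0.20 to 0.37) and 0.27 for CHMP4C. The interval of CHMP4C, -0.04 to 0.59, included 0. CHMP4C, at 8.45 CPM in EV-siNC and 10.1 CPM in EV-siYAP1, reached the floor only in the EV-siYAP1 library. Its place among the higher genes was thus set by the floor. The lowest ratios were -0.18 for PDCD6 (interval -0.26 to -0.10), -0.14 for VPS4B and -0.14 for VPS25. The interval of VPS4B, -0.39 to 0.10, included 0, and that of VPS25, -0.22 to -0.06, did not. Of the genes that changed in the producing cells, SDC4 was at 96.4 CPM with EV-siNC and 101 CPM with EV-siYAP1 in the recipients. PDCD6 was at 147 CPM with EV-siNC and 128 CPM with EV-siYAP1.

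Between vesicles from COUP-TFII-depleted and from control EnzaR cells, 34 of 46 genes were higher and 12 lower, with a median log2 ratio of 0.08 against 0.01 over all genes, of which 51.9% were higher and 48.1% lower. The highest ratios were 0.47 for SYTL4 (interval 0.16 to 0.79), 0.28 for TSG101 (interval 0.15 to 0.41) and 0.26 for CHMP4C. The interval of CHMP4C, -0.05 to 0.58, included 0. SYTL4, from 8.08 to 11.1 CPM, and CHMP4C, from 8.45 to 10.1 CPM, reached the floor only in the EV-siCII library. Their place among the higher genes was thus set by the floor. The lowest ratios were -0.29 for CHMP5 (interval -0.52 to -0.06), -0.14 for SNAP23 and -0.10 for YKT6, a SNARE. The interval of SNAP23, -0.38 to 0.10, included 0, and that of YKT6, -0.18 to -0.03, did not. All of these ratios lie within the range between the siNC replicates, while SYTL4 and CHMP5 lie outside the range between the siYAP1 replicates.

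CHMP2B was the 1 gene of 46 above the floor in which all 3 vesicle libraries lay at least 0.32 from control on the log2 scale, all on the same side, where 8.44% of all genes did. It was at 10.0 CPM in control and at 12.7, 13.5 and 14.99 CPM with vesicles. After GC and length correction none of the 54 genes met this rule.

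**Figure D5:**
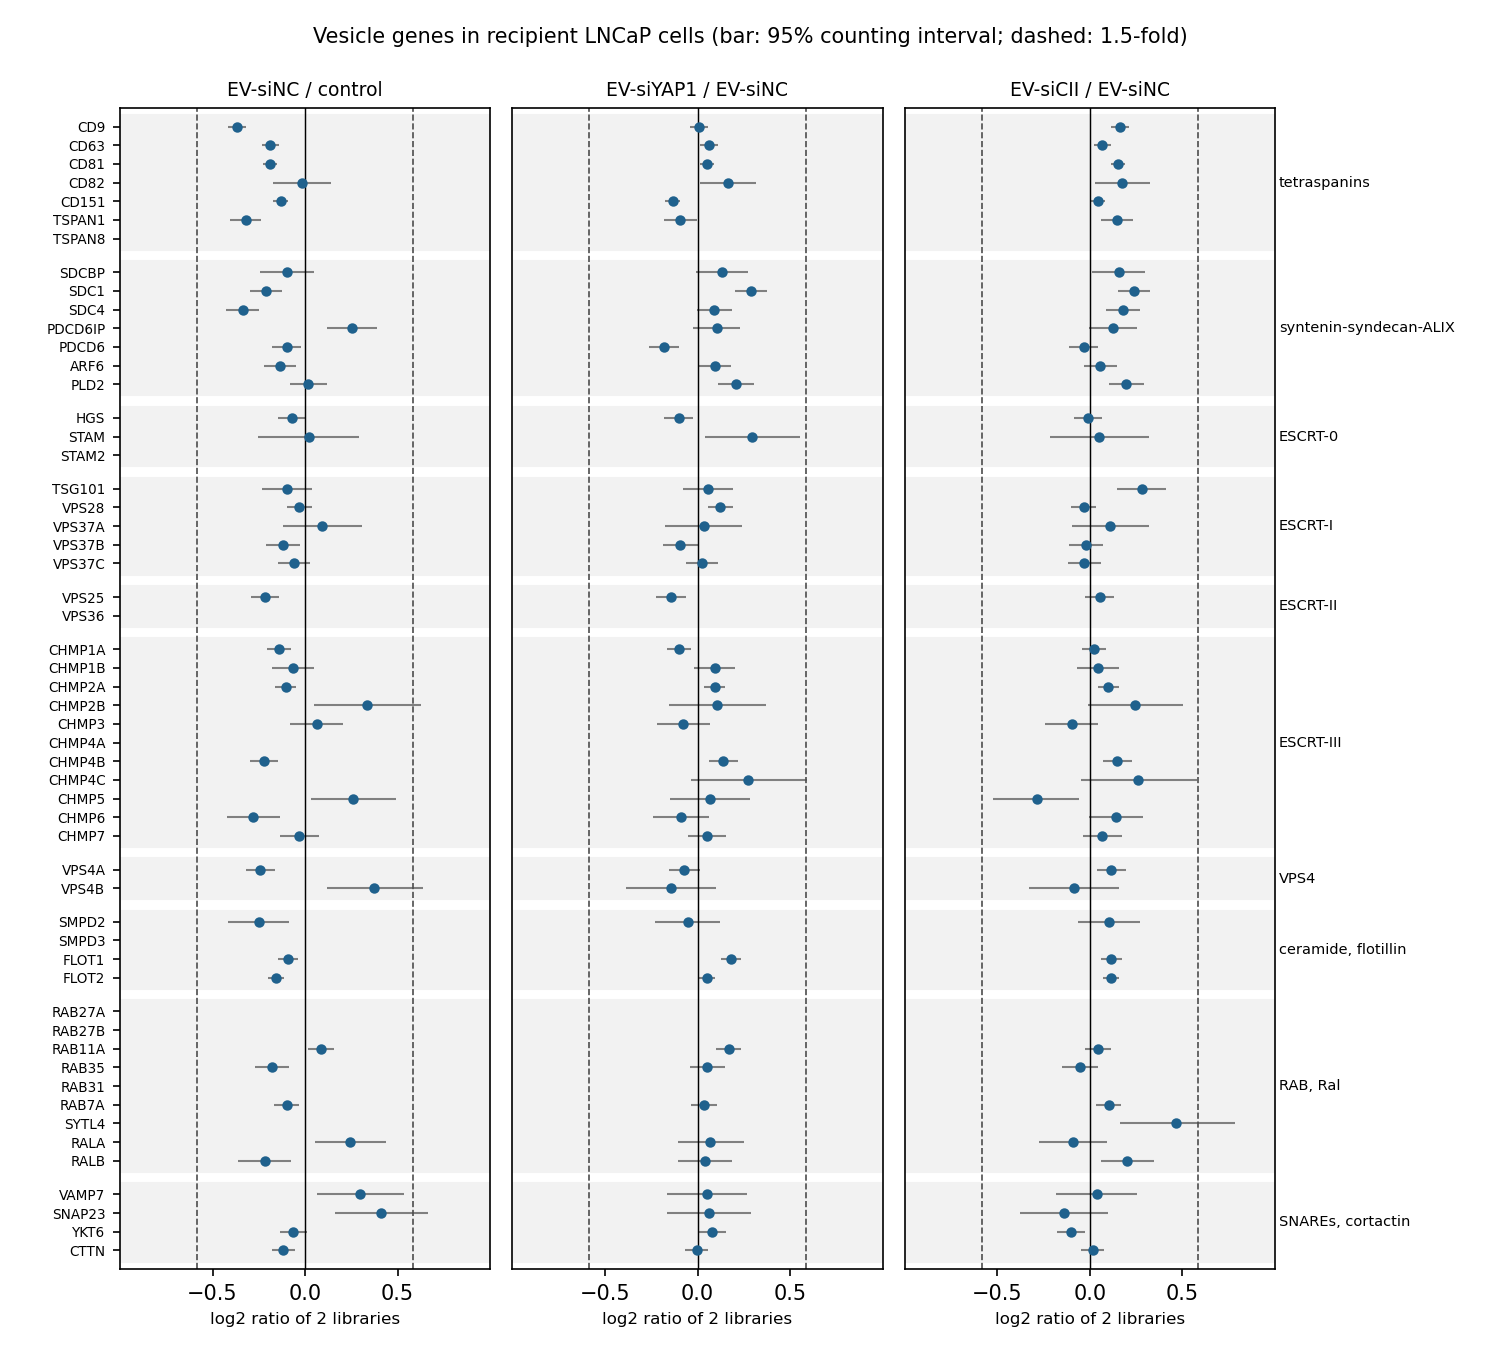
log2 ratio between 2 LNCaP libraries for each vesicle gene above 10 CPM, by role, with bars of the exact 95% counting interval and dashed lines at 1.5-fold; panels show EV-siNC over control, EV-siYAP1 over EV-siNC and EV-siCII over EV-siNC. Every point lies inside the dashed lines, and the 6 tetraspanins shown are below 0 in the first panel; CD81, CD82 and CD151 are above 0, at 0.02, 0.08 and 0.03, after the GC and length correction, which is not drawn.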

How the data were processed

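RNA-seq of 8 libraries was used as the authors deposited it: whole read counts per gene and FPKM for 57905 genes. Tools named per the submitters' processing notes were HISAT2 2.0.1, HTSeq 0.6.1, cutadapt 1.9.1 and DESeq2, and the genome was hg19 (GRCh37). The annotation release is not given in the sources used here, nor is the strand setting. The deposited FPKM equalled count over length and column total within 0.0051 for 463240 of 463240 values. Symbols were matched by identifier for 51996 genes, with 99.24% of counts.

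Counts were tested with edgeR 4.0.16 (R 4.3.3; quasi-likelihood, filterByExpr, TMM, Benjamini-Hochberg over all genes, threshold 0.05): siYAP1 against siNC in a fit of the 4 EnzaR libraries, and siNC against LNCaP in a fit of all 8 libraries, where the 4 LNCaP treatments form 1 level. TMM factors were 0.911 to 1.053. In simulated counts for siYAP1 (14948 genes) the test found 97% of genes changed 2-fold and 65% of those changed 1.5-fold. For the lines (16671 genes) it found 99% and 83%, and false calls were 3.571% and 6.667%. Changed genes were drawn from well-counted genes only, so these rates do not cover low-count genes such as RAB27A. Both simulations used a dispersion (spread beyond counting error) of 0.0075, below the 0.00938 estimated in the fit of the lines. The alternatives were DESeq2 1.42.0, limma 3.58.1 (voom), other scalings and filters, leaving out each library, a replicate block, and a smooth GC and length surface (mgcv 1.9.3; GC known for 97.3% of genes tested, from a GRCh38 annotation).

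No pair of libraries agreed within sampling noise (lowest chi-square per degree of freedom 4.71). The 54 genes, the role groups and the 11 further lists (138 of 139 names matched) were chosen with earlier results of these data known. Some lineage markers are not reported here. Named genes were all called ones for siYAP1, the 12 largest non-overlapping calls per direction between lines, the 3 largest ratios per direction in LNCaP, 9 standard vesicle genes, and the 2 largest calls per list and direction. Gene overlaps were taken from the deposited coordinates.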

Additional observations from a re-analysis of the deposited data

How the results depend on the processing

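All 10 vesicle genes called for siYAP1 kept their direction in the 15 alternatives. The count of higher genes, 7, became 3 with library totals as the only scaling, 4 with a replicate block, 2 with the GC and length correction and 2 with both, and ranged from 1 to 6 when 1 library was left out. The count of lower genes, 3, became 7 with library totals and 5 with a filter of 5 CPM in 2 libraries. The genes called lower also changed when 1 library was left out. Without siNC replicate 1, CD82 and SDCBP lost their call and CHMP2B and CHMP5 were newly called lower. Library totals moved the median of all genes from -0.03 to -0.13, and the share of calls that were higher from 48.4% to 17%; it was 66.2% with DESeq2 and 64.5% with the GC and length correction. Over all genes 1802 calls became 657 with that correction. Same-numbered EnzaR libraries did not deviate together (correlation -0.2, 2 pairs), so the numbers were not taken as pairs. Crossing the replicate numbers in the block, added after the data were seen, gave 7 higher and 4 lower genes and 2820 calls over all genes.

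Between the lines, genes higher with a 2-fold minimum went from 4 to 8 against the control library alone. Among genes called with or without it, the GC and length correction reversed CD81 (0.28), SDCBP (-0.11), PDCD6 (0.19), ARF6 (-0.55), VPS37A (-0.26), CHMP1A (0.062), CHMP6 (0.37) and RAB7A (-0.16), and taking all 4 EnzaR libraries reversed PDCD6 (0.24). TSPAN8, CHMP4A and RAB27A could not be tested with the 5 CPM filter. Over single genes, 44 values for siYAP1 and 48 between lines fell short of the threshold under an alternative, and 11 and 14 newly passed it.

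In LNCaP, a floor of 1 CPM brought 2 genes past 1.5-fold for EV-siNC against control, RAB27B (0.60, counting interval 0.14 to 1.09) and STAM2 (0.75, 0.25 to 1.31), where 10.7% of all genes passed, and 1 for EV-siYAP1 against EV-siNC, VPS36 (-0.79, -1.44 to -0.23), where 7.48% passed. Genes at least 0.32 from control on the log2 scale in all 3 vesicle libraries numbered 2 with library totals, 3 with the 1 CPM floor and 0 with the correction, in place of 1. The causes were not tested. Single libraries, no vesicle RNA or protein and low counts of RAB27A, RAB27B, SMPD3 and TSPAN8 limit what these data can show.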
